A study of Homo sapiens with 4 samples.

Results

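Knockdown of LINC00622 was compared with its control over 2 melanoma cell lines at once, to describe the transcriptional response that the lines had in common. Members of the comparison were chosen by treatment and cell line, and they are 4 of the 4 RNA-Seq libraries of the study. A375 and SK-MEL-28 are established human melanoma lines, sources of tumor cells of the melanocyte lineage. Each line gave 1 library of cells transfected with an siRNA against LINC00622 (siLINC00622) and 1 library of cells transfected with a control siRNA (siNC). All 4 cultures were kept for 6 h without serum after transfection and then for 24 h with serum, so serum withdrawal and return are shared by both groups. Nothing in the labels tells separate cultures apart within a line, so the line itself was the replicate, with 2 pairs. The p-values therefore set the mean change of the 2 lines against a spread taken from how their responses differed and from all genes together. They are not a measure of likeness alone, since a gene can be called though the lines changed by unequal amounts.

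LINC00622 is a long noncoding RNA, that is, a transcript that is spliced or processed like a messenger RNA without coding for a protein. An siRNA lowers such a transcript through Argonaute proteins, which hold 1 strand of the duplex, the guide, and cut an RNA that pairs with it over its whole length. The guide's seed, positions 2 to 8 from its 5′ end, is also the stretch through which small RNAs recognise sites in the 3′ untranslated regions (3′ UTRs) of other messenger RNAs. RRAGD, which the study follows and chose on these samples, is a Rag GTPase, one of the proteins that bring the growth-controlling kinase complex mTORC1 to the lysosome when amino acids are plentiful.

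The study lists 2 siRNAs against LINC00622, and the sources used here do not say which of them, or whether a mixture, was in the sequenced cells. They are shown because the sites they recognise are set beside the response further on. Each target is written 5′ to 3′ as it stands in the LINC00622 transcript, and each guide is its reverse complement. Capitals mark the guide's seed and, in the target, the 7 bases opposite it.
siLINC00622_1 target: ccctaaagaaaGTGAGAAa
siLINC00622_1 guide: tTTCTCACtttctttaggg
siLINC00622_2 target: ggcaacctctaATTGACTt
siLINC00622_2 guide: aAGTCAATtagaggttgcc
In GRCh38, the first target lies at chr1:119598699-119598717 and the second at chr1:119598439-119598457, both on the minus strand. They are positions 555 to 573 and 815 to 833 of the 1570 bases of the annotated transcript.

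LINC00622 had fewer reads with siLINC00622 than with siNC in both lines. Its counts were 135 with siNC and 86 with siLINC00622 in A375, and 309 and 135 in the same order in SK-MEL-28. As CPM, the count relative to the library's size, scaled by the TMM method to even out library composition, these are 4.03 and 2.25 in A375 and 9.84 and 4.21 in SK-MEL-28. The siNC library of A375 thus sat below the siLINC00622 library of SK-MEL-28, and the groups overlapped. Paired by line, the log2 fold change of siLINC00622 over siNC was -1.05 (SE 0.20, 95% interval -1.52 to -0.58, n = 2 pairs), with an adjusted p of 0.106 in edgeR's quasi-likelihood test. LINC00622 therefore did not pass the test of the paired fit.

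Library totals were between 31269923 and 36384819 counts, and 16310 of the 17755 listed genes had 10 or more counts in 2 or more libraries and were tested. All 8 melanocyte lineage markers were measured, and their summed CPM was 527 and 658 in A375 and 9160 and 9700 in SK-MEL-28, in the order siNC and siLINC00622. Of the markers of other cell types, 4 of 10 keratinocyte, 2 of 10 fibroblast, 3 of 8 endothelial and 1 of 10 blood cell genes passed the filter on counts, and none of them passed the test. PTPRC, PECAM1, DCN and KRT5, which define blood, endothelial, fibroblast and keratinocyte cells, were not among the genes tested. Those tested were KRT10, KRT14, DSC3, SFN, PDGFRB, LUM, KDR, TIE1, ESAM and LYZ. With siNC, KRT14 had 494 counts in A375 and 6 in SK-MEL-28, PDGFRB 416 and 2, and LUM 187 and 803. In the same order, KDR had 256 and 8 counts, and LYZ 125 and 9. The summed CPM of these lists spanned 0.286 to 79.7 over lists and lines with siNC and 0.405 to 82.2 with siLINC00622. Mitochondrially encoded genes summed to 27800 CPM with siNC and 30000 with siLINC00622 in A375, and to 58300 and 60000 in SK-MEL-28. Since these are bulk libraries, fewer cells of a type and less RNA per cell cannot be told apart.

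In the paired fit, 46 genes passed an adjusted p of 0.05, which is 0.282% of the genes tested. Of these, 19 were higher with siLINC00622 (0.116%) and 27 were lower (0.166%). TPM4, an actin-binding tropomyosin, rose with the smallest adjusted p, 0.00572, and ZDHHC20, a palmitoyltransferase, fell furthest among the called genes. An adjusted p of 0.045 or more was found for 36 of the 46 called genes, and another 117 genes lay between 0.05 and 0.1, 58 of them higher and 59 lower. Just inside the threshold were PCNX3, LMNB1 and CBR1, each with an adjusted p of 0.0498, and just outside were GXYLT1, GNPDA1 and NLRP1, each with 0.0510. With DESeq2 size factors or library totals in place of TMM, TPM4 was the only gene called, so the number of calls changed with the scaling. At an unadjusted p under 0.05 there were 2388 genes (14.6%), with 1235 higher (7.57%) and 1153 lower (7.07%).

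All 46 called genes changed in the same direction in both lines, whereas 60.5% of all tested genes did. A small p in this fit favours genes with the same direction but does not require it. TRPM1, with 26 and 16 counts in A375, had log2 ratios of -0.81 there and 1.54 in SK-MEL-28. Its unadjusted p was 0.00649 in edgeR's quasi-likelihood test. A change of more than 1.5-fold in both lines was found for 45 of the 46. Over all tested genes, 152 were past 1.5-fold higher in both lines (0.932%), 174 were past it lower in both (1.07%), and 139 were past it in opposite directions (0.852%). The size of the change was larger in SK-MEL-28 for 35 of the 46 called genes, and for 23 of the 27 lower ones. Over all tested genes it was larger in SK-MEL-28 for 8599 of 16310. In SK-MEL-28 the median log2 ratio was -1.13 for the lower genes and 0.90 for the higher genes, and in A375 it was -0.96 and 0.81. The difference in response between the lines is the residual of the model, so it was not tested.

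**Figure D1:**
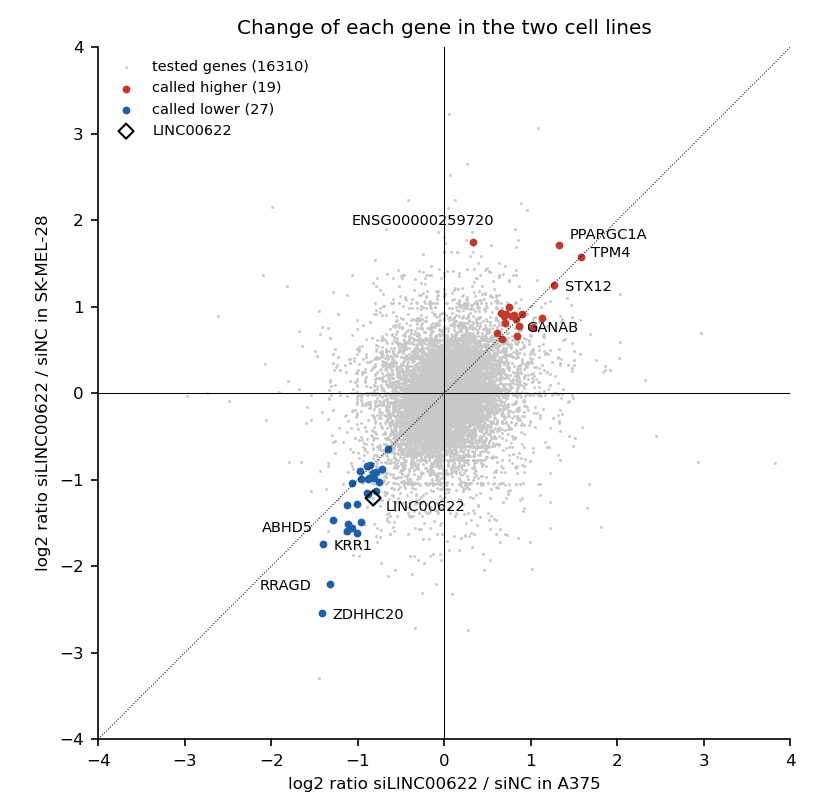
Each point is 1 of the 16310 tested genes, placed by its log2 ratio of siLINC00622 over siNC, A375 on the horizontal and SK-MEL-28 on the vertical axis, with genes called in the paired fit in red (19 higher) and blue (27 lower) and LINC00622 as an open diamond. The dotted line marks equal change. Log2 ratios of called genes differed between the lines by a median of 0.18, against 0.21 over all tested genes, and by at most 1.42. Of the 27 lower genes, 23 lie below the dotted line, where the change was larger in SK-MEL-28.

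Called genes were better expressed than most, with a median log2 CPM of 5.66 against 4.25 over all tested genes. Of the 46, 45 are protein coding (97.8%), against 76.0% of the tested genes. The lower genes stood on 19 chromosomes and the higher genes on 10. The median GC content of the longest transcript was 42.1% for the lower genes, 48.5% for the higher genes and 48.1% for all tested genes. The TMM-scaled CPM of the 2 siNC and the 2 siLINC00622 libraries did not overlap for 21 of the 27 lower and 7 of the 19 higher genes, against 11.7% of all tested genes. The genes were called on these same libraries, so a larger share among them is built in by the choice. The library kit named in the methods does not mark strand. By whole gene spans, introns included, 13 of the 46 overlap a protein-coding gene on the other strand in GENCODE 29. They are KRR1, CCND1, ABHD5, FAM217B, ERG28, RNF138, PLEKHG4, POLR3F and CBR1 among the lower genes and SLC6A8, CEMIP, TP53INP2 and ENSG00000259720 among the higher ones. Overlap of exons was not examined, so it is not known whether their counts hold reads of the other strand. The same count was not made over all tested genes.

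The called gene that fell furthest was ZDHHC20. This enzyme, which attaches palmitate to cysteines of membrane proteins, had 162 CPM with siNC and 60.9 with siLINC00622 in A375, and 134 and 22.9 in SK-MEL-28. Both siNC libraries were above both siLINC00622 libraries, and the paired log2 fold change was -1.96 (SE 0.25, adjusted p = 0.0498 in edgeR's quasi-likelihood test). ABHD5, the coactivator of the lipase that starts triglyceride breakdown on lipid droplets, had 28.2 and 11.5 CPM in A375 and 23.6 and 8.51 in SK-MEL-28. It fell by 1.38 on the log2 scale (SE 0.12, adjusted p = 0.0406), with no overlap between the groups. ERG28, an endoplasmic reticulum protein of sterol synthesis, had 16.3 and 7.47 CPM in A375 and 33.7 and 13.7 in SK-MEL-28, a log2 fold change of -1.22. SGPL1, which degrades sphingosine 1-phosphate, and PIGA, a subunit of the enzyme that begins the GPI anchor, changed by -0.86 and -0.90. No other tested palmitoyltransferase was called, and of the 19 tested the highest value was that of ZDHHC16 at 0.65.

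KRR1, a factor of small ribosomal subunit assembly, had 79.8 CPM with siNC and 30.2 with siLINC00622 in A375, and 73.4 and 21.9 in SK-MEL-28. Its log2 fold change was -1.57 (SE 0.12, adjusted p = 0.0368), the second smallest p of the fit. LTV1, which takes part in maturation of the same subunit, had 22.7 and 10.8 CPM in A375 and 19.7 and 9.54 in SK-MEL-28. TRUB1, which makes pseudouridine in tRNA, had 54.7 and 27.1 CPM in A375 and 62.9 and 20.5 in SK-MEL-28. For LTV1 and TRUB1 the log2 fold changes were -1.06 and -1.31, and the groups did not overlap for either. POLR3F, a subunit of RNA polymerase III, had a log2 fold change of -0.95. Of the 44 tested ribosome biogenesis factors, KRR1 alone was called, and the median was -0.08. At an unadjusted p under 0.05, 9 were lower and 1 was higher (22.7%), against 14.6% of all genes in either direction. The 79 cytosolic ribosomal protein genes had 0 members at an unadjusted p under 0.05 in either direction, and their values lay between -0.20 (RPL26) and 0.09 (RPL28).

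Among cell cycle genes, cyclin D1 and a pair of S-phase genes fell. CCND1, cyclin D1, which drives entry into the cell cycle with CDK4 and CDK6, had 824 CPM with siNC and 445 with siLINC00622 in A375, and 1115 and 501 in SK-MEL-28. Both siNC libraries were above both siLINC00622 libraries, and CCND1 fell by 1.02 on the log2 scale (SE 0.09, adjusted p = 0.0406). E2F2, a transcription factor of S-phase genes, had 23.3 and 12.7 CPM in A375 and 32.2 and 16.3 in SK-MEL-28, a log2 fold change of -0.93. UHRF1, which recruits the maintenance DNA methyltransferase to newly copied DNA, had 235 and 143 CPM in A375 and 90.3 and 49.1 in SK-MEL-28. The siLINC00622 library of A375 was above the siNC library of SK-MEL-28, and the paired log2 fold change was -0.80 (SE 0.09, adjusted p = 0.0456). LMNB1, lamin B1 of the nuclear lamina, changed by -0.65, the smallest change among the genes called lower. NEK7, a mitotic kinase, and BTG3, an antiproliferative gene, changed by -0.96 and -0.95.

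Around these called genes, nearly all members of the DNA replication and mitosis lists were lower in both lines, by amounts that mostly did not pass the adjusted test. Of 40 tested DNA replication and E2F target genes, 30 were lower and 0 higher at an unadjusted p under 0.05, or 75.0% against the 7.07% of all genes. The log2 ratio was below 0 in both lines for 37 of the 40, and the median log2 fold change was -0.31, against 0.01 for all tested genes. E2F2 and UHRF1 were the 2 called, and RRM2, the small subunit of ribonucleotide reductase, stood close with a value of -0.60 and an adjusted p of 0.0537. RRM2 had 534 and 334 CPM in A375 and 485 and 336 in SK-MEL-28. MCM2, a subunit of the replicative helicase, and PCNA, the sliding clamp of the polymerase, had values of -0.37 and -0.29.
Of 34 mitosis genes, 27 were lower and 0 higher at an unadjusted p under 0.05 (79.4%), 32 were below 0 in both lines, and the median was -0.30. None of them was called, and the lowest value was that of the spindle checkpoint gene MAD2L1, -0.65 with an adjusted p of 0.0699. MAD2L1 had 116 and 80.1 CPM in A375 and 112 and 65.6 in SK-MEL-28, so its groups did not overlap. CDC20, the activator of the anaphase-promoting complex, had 314 and 225 CPM in A375 and 264 and 183 in SK-MEL-28, a value of -0.51.
Of 29 cyclins, cyclin-dependent kinases and their inhibitors, 7 were lower and 1 higher at that p (27.6%), against 14.6% of all genes in either direction. In this list, 16 were below 0 and 7 above 0 in both lines. CCNA1, a cyclin named by the study from these samples, had the lowest value at -1.51 and missed the threshold with an adjusted p of 0.0558. CDKN1A, the kinase inhibitor p21, had the highest value at 0.35 (adjusted p = 0.302). Its 143 and 210.4 CPM in A375 stood apart, while 7.67 and 7.92 CPM in SK-MEL-28 lay close together.

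RRAGD fell in both lines, from 15.4 to 6.13 CPM in A375 and from 105 to 22.8 in SK-MEL-28. The siNC library of A375 lay below the siLINC00622 library of SK-MEL-28, so RRAGD was the one gene among the 12 with the largest decrease whose groups overlapped. Its paired log2 fold change was -1.82 (SE 0.21, 95% interval -2.31 to -1.33, adjusted p = 0.0456), a 3.53-fold decrease. Ranked by p, RRAGD stood at 21 of 16310 genes. With DESeq2 size factors its adjusted p was 0.0617 and with library totals 0.0886, both above the threshold. The other Rag GTPases were not called, with log2 fold changes of 0.22 for RRAGA, 0.03 for RRAGB and -0.05 for RRAGC. MTOR, the kinase itself, had a value of -0.39 and an adjusted p of 0.137. Of the 39 tested mTORC1 and amino-acid sensing genes, RRAGD alone was called, and the median was 0.06. At an unadjusted p under 0.05, 4 were higher and 2 lower (15.4%), near the 14.6% of all genes in either direction. BTF3, the transcription factor subunit that the study links to this RNA, had a value of -0.02 (adjusted p = 0.940).

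PIK3R4, the regulatory subunit of the lipid kinase VPS34 that starts autophagosomes, was the only called gene of the 40 autophagy genes tested. It had 86.7 and 47.1 CPM in A375 and 74.1 and 33.0 in SK-MEL-28, and it fell by 1.02 on the log2 scale (SE 0.11, adjusted p = 0.0456). In the same list, 9 genes were higher and 2 lower at an unadjusted p under 0.05, against 7.57% and 7.07% of all genes, the median was 0.12, and the highest value was 0.62 for WIPI1, a reader of the lipid that VPS34 makes.
Lysosomal genes had the highest median of all lists of 10 or more genes, 0.21. Of the 47 tested, 17 were higher and 2 lower at an unadjusted p under 0.05, against 7.57% of all genes higher, and 30 were above 0 in both lines. None was called. CTSD, the protease cathepsin D, had the highest value, 0.53 (adjusted p = 0.0722), from 46.6 to 66.3 CPM in A375 and from 379 to 552 in SK-MEL-28. GM2A, the activator protein for ganglioside breakdown, had the lowest, -1.04 (adjusted p = 0.0555), from 35.2 to 20.9 CPM in A375 and from 138 to 55.5 in SK-MEL-28.

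Other genes among the 12 with the largest decrease came from separate functions. RNF138, a ubiquitin ligase of DNA repair, had 45.5 and 20.9 CPM in A375 and 44.7 and 14.7 in SK-MEL-28. FBXO28, a substrate receptor of another ubiquitin ligase, had 102 and 48.7 CPM in A375 and 63.8 and 21.5 in SK-MEL-28. CHCHD3, which shapes the inner membrane of mitochondria, had 107 and 54.7 CPM in A375 and 151 and 53.8 in SK-MEL-28. Groups did not overlap for any of the 3, and their log2 fold changes were -1.36, -1.31 and -1.23. ENOPH1, an enzyme of methionine salvage, went from 56.5 to 28.0 CPM in A375 and from 80.0 to 32.8 in SK-MEL-28. FAM217B went from 58.5 to 26.9 CPM and from 84.3 to 29.5 in the same order. The changes of ENOPH1 and FAM217B were -1.15 and -1.32.

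Among the higher genes, TPM4 changed by almost the same ratio in both lines. It had 228 CPM with siNC and 679 with siLINC00622 in A375, and 279 and 831 in SK-MEL-28. Both siLINC00622 libraries were far above both siNC libraries, and the log2 ratio was 1.58 in each line. The paired log2 fold change was 1.58 (SE 0.08, 95% interval 1.39 to 1.76), a 2.98-fold increase, with an adjusted p of 0.00572. The other tropomyosin genes were not called, with log2 fold changes of -0.14 for TPM1, 0.16 for TPM2 and -0.08 for TPM3. Of 36 tropomyosin and actin filament genes, TPM4 alone was called. At an unadjusted p under 0.05, 3 were higher and 2 lower (13.9%), near the 14.6% of all genes in either direction.

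STX12, a syntaxin of endosomes, had 20.4 and 49.4 CPM in A375 and 29.9 and 71.2 in SK-MEL-28, a log2 fold change of 1.26 (SE 0.10, adjusted p = 0.0368). BICD2, the adaptor that links dynein to its cargo, had 80.1 and 149 CPM in A375 and 86.9 and 163 in SK-MEL-28, a value of 0.90. STX12 and BICD2 had no overlap between the groups.
SLC6A8, the creatine transporter, had 98.4 and 165 CPM in A375 and 273 and 544 in SK-MEL-28. IL6R, the receptor of interleukin-6, had 20.3 and 35.6 CPM in A375 and 62.8 and 117 in SK-MEL-28. ITGA5, the integrin subunit that binds fibronectin, had 190.1 and 311 CPM in A375 and 25.5 and 47.9 in SK-MEL-28. The groups overlapped for these 3, whose levels differed between the lines, and the paired log2 fold changes were 0.87, 0.86 and 0.80. CEMIP, which takes part in the breakdown of hyaluronan, had a value of 0.79. ITGA5 was the only called gene of 38 tested integrin, laminin and collagen genes. At an unadjusted p under 0.05, 5 of them were higher and 4 lower (23.7%), against 14.6% of all genes in either direction.

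GANAB, the glucosidase that trims newly made glycoproteins in the endoplasmic reticulum, had 372 and 658 CPM in A375 and 399 and 723 in SK-MEL-28. Its groups did not overlap, and its log2 fold change was 0.84 (SE 0.08, adjusted p = 0.0406). Of 30 ER chaperone and unfolded protein response genes none was called, and 20 were above 0 in both lines. At an unadjusted p under 0.05, 8 were higher and 1 lower (30.0%), against 14.6% of all genes in either direction.
PPARGC1A, the coactivator of mitochondrial biogenesis known as PGC-1α, rose in both lines from very unequal levels. It had 0.926 and 2.41 CPM in A375, from 31 and 92 counts, and 19.4 and 63.6 in SK-MEL-28, from 609 and 2040 counts. The log2 fold change was 1.63 (SE 0.14, adjusted p = 0.0406). On log2(FPKM + 1), a scale that understates changes of low genes, PPARGC1A had 0.72 with an adjusted p of 0.286 in limma and was not called. FAM210B, a mitochondrial membrane protein, had 32.7 and 66.5 CPM in A375 and 162 and 274 in SK-MEL-28, a value of 0.89. TP53INP2, a nuclear factor that also binds autophagosome proteins, had 9.11 and 16.7 CPM in A375 and 50.8 and 86.9 in SK-MEL-28, a value of 0.82. ME1, the cytosolic malic enzyme, and SGK1, a kinase induced by serum and glucocorticoids, had values of 0.75 and 0.64.
Of the higher genes, 2 had under 50 counts in both libraries of a line. FBN1, fibrillin of the extracellular matrix, had 19 and 37 counts in SK-MEL-28. ENSG00000259720, a gene without a symbol, had 1 and 2 counts in A375 and 279 and 962 in SK-MEL-28. It lies at chr15:31002013-31042302 on the plus strand of GRCh38, inside the melanocyte channel gene TRPM1 on the minus strand, and it was the one called gene that did not pass 1.5-fold in both lines. TRPM1 had 0.777 and 0.419 CPM in A375 and 172 and 499 in SK-MEL-28 (adjusted p = 0.159). Without strand, reads from any exon stretch that the 2 genes share cannot be told apart, and overlap of their exons was not examined.

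**Figure D2:**
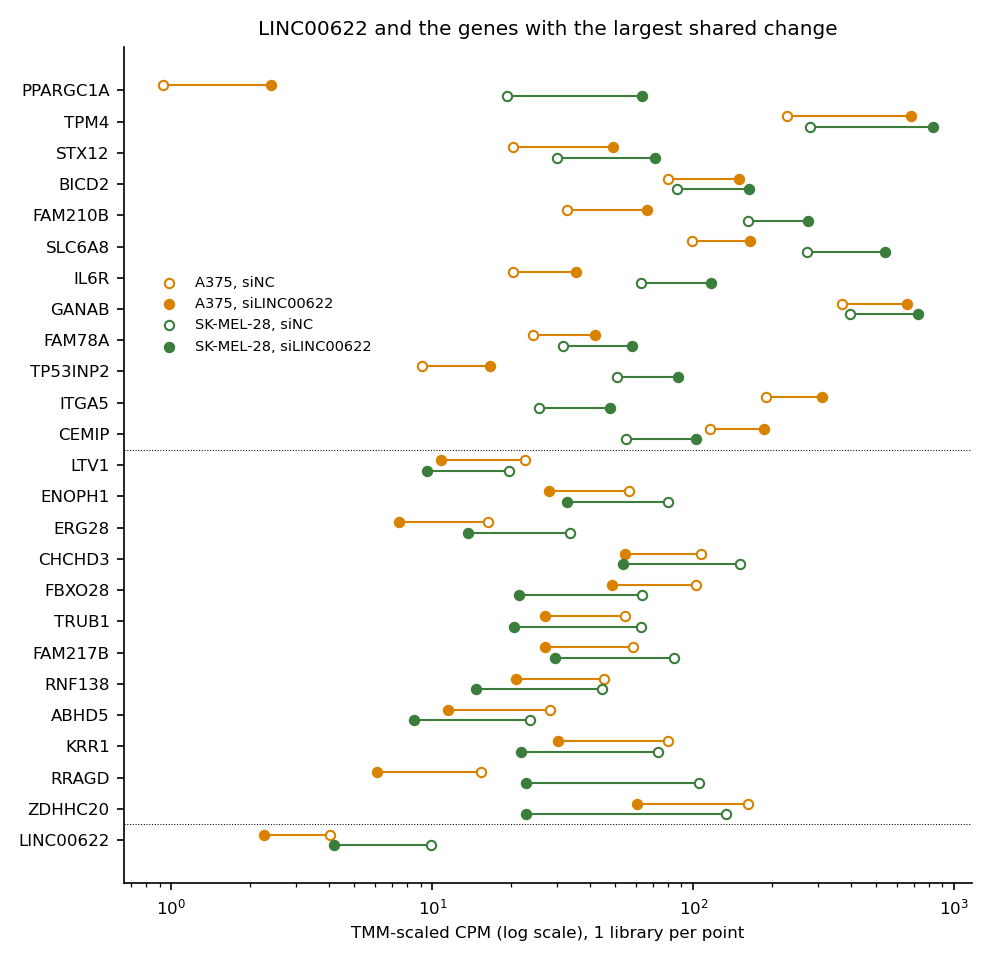
TMM-scaled CPM on a log axis for LINC00622, the 12 named genes with the largest decrease and the 12 with the largest increase, with open points for siNC and filled points for siLINC00622 and 1 library per point (A375 in orange, SK-MEL-28 in green). Each line moved in the same direction for every gene shown, and the levels of PPARGC1A in the 2 lines were further apart than its change within either.

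Other lists held few or no called genes, and their counts stand beside 7.57% of all genes higher and 7.07% lower at an unadjusted p under 0.05. Of 23 YAP and TEAD targets, 9 were lower and 1 higher at an unadjusted p under 0.05, the median was -0.24, and none was called. In the list of MAPK output and feedback genes, CCND1 was the only called gene of 26, with 3 higher and 4 lower at that p. Pigment cell genes had 6 higher and 0 lower of 25, ATF4 targets 6 and 3 of 30, and cholesterol and fatty acid synthesis genes 5 and 0 of 29, with 0 called in each. RGS proteins, which switch off G protein signals, had 4 higher and 1 lower of 13, and RGS16 had a value of 1.19 (adjusted p = 0.0751). Counts of higher and lower follow the paired value, not the sign in each line. TRPM1 of the pigment cell list and RGS1, counted as higher, had log2 ratios of -0.81 and -0.48 in A375. In SK-MEL-28 theirs were 1.54 and 0.86. Targets of p53 had 3 higher and 1 lower of 27, and the 1 lower gene was MDM2 at -0.77 (adjusted p = 0.114). Interferon-stimulated and RNA-sensing genes, which respond to double-stranded RNA, had 2 higher and 0 lower of 30. In either direction this was 6.67%, below the 14.6% of all genes. In the RNA interference machinery, 1 of 13 genes was lower at an unadjusted p under 0.05, AGO2 at -0.41. ABHD5 alone was called of 14 genes of lipid droplets and triglyceride breakdown, and mitochondrially encoded genes had 2 higher of 13. In all lists together, 10 of the 722 tested members were called, beside 46 of the 16310 genes tested (0.282%), and the lists were chosen with earlier results of these data known.

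**Figure D3:**
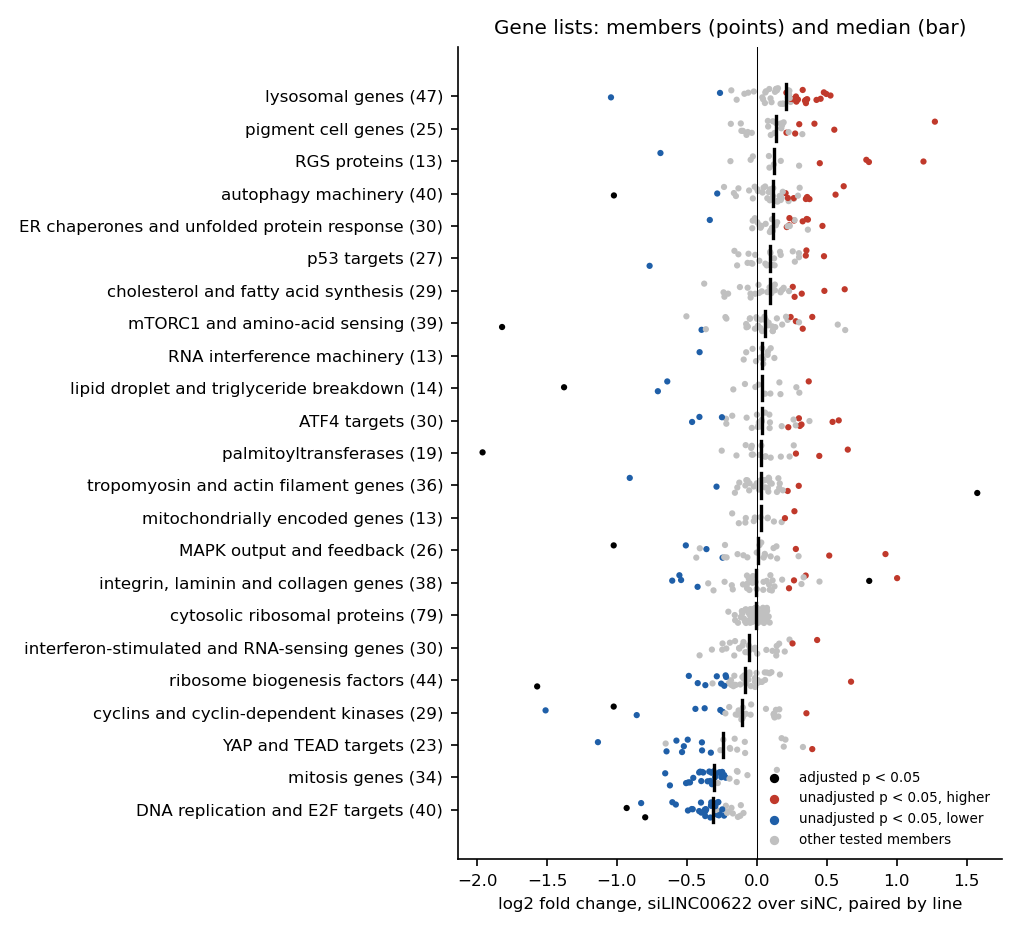
Log2 fold change of siLINC00622 over siNC, paired by line, for each tested member of 23 gene lists (points, with the number tested in brackets) and the median of each list (bars), ordered by that median. The lists of DNA replication and E2F targets and of mitosis genes lie almost wholly below 0, with medians of -0.31 and -0.30, and the lysosomal genes have the highest median at 0.21.

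The 3′ UTRs of the lower genes were searched for the 7 bases opposite each siRNA seed, GTGAGAA for siLINC00622_1 and ATTGACT for siLINC00622_2. The sense strand of the longest annotated 3′ UTR was read, since that is the strand of the messenger RNA, and the 2 words can share at most 1 base. At least 1 site of either word was found in 18 of the 27 lower genes (66.7%), in 4 of the 18 higher genes with a 3′ UTR (22.2%) and in 3125 of 12365 tested genes with one (25.3%). GTGAGAA was in 12 of the lower genes (44.4%, against 16.2% of all) and ATTGACT in 7 (25.9%, against 12.6%). A site followed by A, a form that small RNAs are known to recognise more strongly, was in 11 of the lower genes (40.7%), 0 of the higher genes and 8.89% of all. The wider rule of an unadjusted p under 0.05 and a change over 1.5-fold took in 625 genes (3.83%), of which 319 were higher (1.96%) and 306 lower (1.88%). A site was held by 51.3% of the 224 lower and 23.3% of the 210 higher genes of this rule that have a 3′ UTR. The part of seed pairing in the decrease was not tested.

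Sites are shown for the 12 lower genes that hold one and fell by more than 1 on the log2 scale, as windows of 19 bases aligned with the siRNA targets above and with the site in capitals. Where a gene had several sites, the window with most bases matching the target is given (for FBXO28, with equal ones, the first). They are shown because these are the stretches that the guides could meet in these messenger RNAs.
ZDHHC20, siLINC00622_2 site: atttgtgcagcATTGACTt
RRAGD, siLINC00622_1 site: aaaaatcccgtGTGAGAAc
KRR1, siLINC00622_1 site: aatattagaatGTGAGAAa
ABHD5, siLINC00622_1 site: ataatctgacaGTGAGAAa
RNF138, siLINC00622_1 site: accgtgatataGTGAGAAa
FAM217B, siLINC00622_2 site: ttctgcctcagATTGACTa
TRUB1, siLINC00622_2 site: tatacttttaaATTGACTt
FBXO28, siLINC00622_2 site: acttccatagtATTGACTg
ENOPH1, siLINC00622_1 site: ctggaatggatGTGAGAAa
LTV1, siLINC00622_2 site: catctttggttATTGACTa
CCND1, siLINC00622_1 site: tccttttatagGTGAGAAa
PIK3R4, siLINC00622_1 site: atgttatagagGTGAGAAa
In GRCh38, the 7 bases of the ZDHHC20 site lie at chr13:21376457-21376463 on the minus strand, those of the RRAGD site at chr6:89367777-89367783 on the minus strand, and those of the CCND1 site at chr11:69652869-69652875 on the plus strand. Of the 26 sites in the 18 lower genes, 18 are of siLINC00622_1 and 8 of siLINC00622_2. Over the 19 bases, between 8 and 14 matched the siRNA target, with a median of 11, so none of these windows was a full match. These counts include the 7 bases of the site, which match in every window by the way it was chosen. Likeness outside the site was not set against other sequences. PIGA held the window with 14 matching bases.

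Genes with a longer 3′ UTR held a site more often among all tested genes. The median length was 2535 bases in the lower genes, 2512 in the higher genes and 1630 in all tested genes. Among genes with a 3′ UTR of 2000 bases or more, 12 of 17 lower genes (70.6%) held a site, against 2266 of 5148 tested genes. With shorter ones, 6 of 10 lower genes did, against 859 of 7217 tested genes (11.9%).
Over all tested genes the shift with sites was small. The median log2 fold change was 0.03 for 9240 genes without a site, -0.02 with 1 site, -0.04 with 2 and -0.06 with 3 or more. The share that was lower by the wider rule was 1.18% without a site and 6.91% with 3 or more, while the share that was higher was 1.74% and 1.63%. The median 3′ UTR length rose over the same groups, from 1290.5 bases without a site to 2676.5 with 1, 4211 with 2 and 6041 with 3 or more. Site number and length were not separated in these shares.
Most lower members of the cell cycle lists had no site, as did most of all tested genes. A site was held by 17.5% of the DNA replication and E2F targets and 23.5% of the mitosis genes, against 25.3% of all tested genes with a 3′ UTR. Of the 33 DNA replication and E2F target genes without a site, 26 were lower at an unadjusted p under 0.05, as were 20 of the 26 mitosis genes without one. With a site, 4 of 7 and 7 of 8 were lower in the same order. The part of seed pairing in these lists was not tested. Of the 35 lysosomal genes without a site, 13 were higher.

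**Figure D4:**
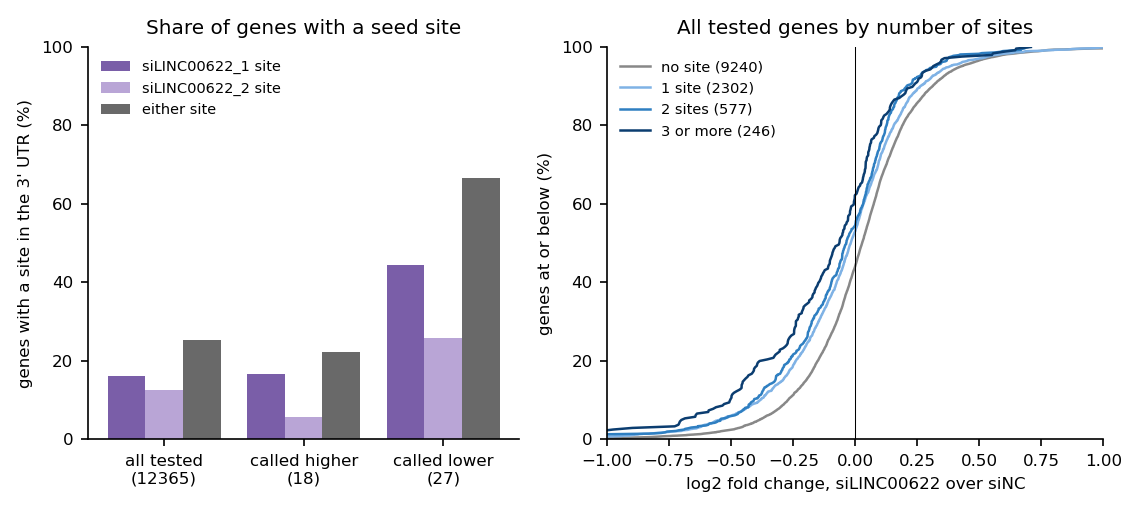
Left, percent of genes with a 3′ UTR site of siLINC00622_1, of siLINC00622_2 or of either, for all tested, called higher and called lower genes (number with a 3′ UTR in brackets), where 66.7% of the lower genes have a site against 25.3% of all. Right, cumulative percent of all tested genes by log2 fold change, grouped by the number of sites, where the curves with sites lie to the left of the curve without and the medians run from 0.03 to -0.06.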

How the data were processed

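The 4 RNA-Seq libraries comprise 1 per cell line (A375, SK-MEL-28) and siRNA (siNC, siLINC00622). Sequencing of poly(A) RNA gave paired-end reads of 150 bases. The submitters' processing notes name hg19, HISAT2, HISAT, TopHat2 and Bowtie2 without roles, and the counting tool and annotation are not given in the sources used here. The authors deposited counts as whole numbers per gene without normalization. The authors deposited FPKM values too, scaled for length and library size, which served as an alternative. The CPM values that the authors deposited gave the library totals, and the TPM values that the authors deposited were not used.

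Counts were fitted with edgeR 4.0.16 in R 4.3.3 (TMM over the 4 libraries, estimateDisp, glmQLFit, glmQLFTest, two-sided, Benjamini-Hochberg adjustment), with cell line and treatment as terms and 1 residual degree of freedom. The pairs come from the cell line in the labels. Genes with 10 or more counts in 2 or more libraries were tested. Log2 ratios within a line used a prior count of 2. Intervals are at 95%. Library totals were 31269923 to 36384819 counts. Of the tested genes, 15937 matched a GENCODE 29 gene model (GRCh38) by Ensembl ID, and the table itself holds no coordinates. The siRNA sequences come from the study's supplement. Gene lists were written from general knowledge, and the members and lists were chosen with earlier results of these data known. Named by rule were LINC00622, RRAGD, BTF3, MTOR and genes the study named in both lines, the 12 largest and 12 smallest log2 fold changes among called genes with 50 or more counts in a library of each line, called members of lists, and each list's extremes. Other genes were named after their values were seen. Scripts were tested on simulated data. Alternatives were DESeq2 1.42.0, limma 3.58.1, other scalings, filters and thresholds, and a fit without the cell line.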

Additional observations from a re-analysis of the deposited data

Results flagged for a closer look

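Integrin, laminin and collagen genes had list medians of opposite direction in the lines, with a median log2 ratio of 0.11 in A375 and -0.14 in SK-MEL-28 over 38 tested genes. This difference between the lines was not tested.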

How the results depend on the processing

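The number of called genes depended on the fit more than their direction did. Against 19 higher and 27 lower genes, there were 1 and 0 with DESeq2 size factors in edgeR, with library totals without TMM, with glmTreat against a fold change of 1.2, and with limma on log2(FPKM + 1), and the 1 gene was TPM4 each time. There were 57 and 64 without a filter on counts, 185 and 266 with 50 or more counts in every library, 154 and 160 with the DESeq2 Wald test, 35 and 38 with limma voom, 20 and 25 with robust edgeR, 77 and 86 at an adjusted p under 0.1, and 319 and 306 at an unadjusted p under 0.05 with a change over 1.5-fold. Without the replicate block of cell line there were 0 and 0, with 28 genes at an unadjusted p under 0.05, and RRAGD had -2.06 with an adjusted p of 1.0. TPM4 was called in 9 of 9 paired alternatives. All 46 called genes kept an unadjusted p under 0.05 with DESeq2 size factors, library totals, no filter, robust edgeR, glmTreat, the Wald test and voom, and 44 did with FPKM. None of the called genes reversed.

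RRAGD missed the threshold with DESeq2 size factors (-1.81, adjusted p = 0.0617), library totals (-1.84, 0.0886), robust edgeR (-1.82, 0.0517), glmTreat (-1.82, 0.0895) and FPKM (-1.45, 0.109). LINC00622 passed it at 50 or more counts in every library (-1.05, adjusted p = 0.0163), where 11530 genes were tested. Leaving out 1 line leaves the other pair without a test, with values from -2.21 to -1.32 for RRAGD and -1.21 to -0.82 for LINC00622. The 10 called list members became 1 with DESeq2 size factors, library totals, glmTreat and FPKM, 24 without a filter, 51 with 50 or more counts, 42 with the Wald test and 0 without the block. Chosen after seeing the data, 50 or more counts in every library left 49 genes past 1.5-fold higher and 80 lower in both lines, and a site of 8 bases was in 40.7% of the lower genes. Beyond the filters' own removal of genes, the cause of these shifts was not tested.

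With 2 pairs and 1 residual degree of freedom, the test leans on the spread shared over genes, and 1 library per line and treatment cannot separate transfection, culture or library effects from the treatment. Genes near 10 counts were measured with wide counting error.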
